A study of Mus musculus with 20 samples.

Results

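HuD (ELAVL4) is a neuronal RNA-binding protein of the ELAV family. It holds U-rich and AU-rich stretches of 3′ UTRs with its RNA recognition motifs and is known for roles in mRNA stability and translation in neurons. A classical AU-rich element is built from overlapping AUUUA pentamers and is common in short-lived mRNAs, such as those of growth factors and early response genes. The sites described here are the HuD binding windows that carry such an A directly before the U core. They are unique genomic windows listed by the authors in a 3′ UTR of a protein coding gene, 7 nt long, with U at positions 3 to 5 and A at position 2, counted from the 5′ end. They are called A windows, and those with C or G at position 2 are called C and G windows. The rule used the sequence and annotation only, and found 695 A windows on 535 genes, of 2868 unique windows in all. C windows numbered 887 and G windows 624, so that A windows were 31.5% of the windows of these 3 kinds (95% Wilson interval 29.6% to 33.5%).

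The cells were NSC-34, a hybrid line of mouse neuroblastoma and embryonic spinal cord cells used as a motor neuron model. All carried the tetracycline repressor (Trex cells), and the HuD cells also carried an inducible human HuD with a His-HA tag, delivered by lentivirus. Binding was mapped by CRAC, in which UV-crosslinked RNA is purified through both tags and deletions in the reads mark crosslinked nucleotides, with 3 HuD and 3 control Trex libraries, both given 10 µg/ml tetracycline for 24 h by the labels, while the study's text names doxycycline at another dose and time. Total RNA (RNA-Seq) and polysomal RNA (POL-Seq, the RNA bound to several ribosomes in a sucrose gradient) were sequenced in 2 control and 2 HuD libraries each, and mRNA 3′ ends in 3 of each. In these assays the HuD cells had 2 µg/ml tetracycline for 48 h, and the treatment of the controls is not given in the labels. The study's methods call the RNA-Seq and POL-Seq replicates and the 3′ end replicates biological, without saying what was kept separate, and the p-values measure the spread between these libraries. The authors pooled the CRAC libraries, so that coverage and deletions carry no replicate error.

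As a check of the labels, *Elavl4*, which encodes HuD, was at 78.3 and 97.4 CPM (counts scaled to a common library size) in total RNA of control cells and 237 and 212 in HuD cells, and the groups did not overlap. Reads of the human transgene and of the mouse gene cannot be told apart in these counts. In 3′ end sequencing *Elavl4* went the other way in all 3 replicate numbers, with 78.1, 38.5 and 78.1 CPM in control and 54.6, 31.4 and 52.4 in HuD libraries (log2 change -0.47, adjusted p = 0.0306 from edgeR with the replicate number as a block, and 0.922 without it), so the libraries are called HuD libraries by their labels. Of 10 neuronal markers, 9 were at 10 CPM or more, while of 6 cholinergic motor neuron markers only *Isl1* was, *Slc5a7* and *Mnx1* had no row and *Chat* was at 0.449 to 0.608 CPM. None of 3 microglial and 3 fibroblast markers had a row of counts, and the single astrocyte marker with one was at 0.634 CPM or less, while the oligodendrocyte markers summed to 13.8 to 18.4 CPM.

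The A windows with the most deletions, those with the most covering reads and the single windows of 3 genes described later are printed with 11 nt on each side. Capitals mark the 7-nt window, and positions are those of the window on GRCm38. The Eef1a1 and Cd9 windows lead in deletions, the Btf3 and Hnrnph2 windows lead in coverage with few deletions, nearly every read at the Mtmr6 window held a deletion, and the windows of Vegfa, Marcks and Mllt11 lie on genes whose RNA is compared below.
Eef1a1, chr9:78478570-78478576, minus strand: auguuguggacCAUUUUUuuugugugugg
Eef1a1, chr9:78478649-78478655, minus strand: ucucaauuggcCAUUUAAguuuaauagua
Cd9, chr6:125460471-125460477, minus strand: caauuuauuuuGAUUUUUuuuuuugguug
Ptma, chr1:86530616-86530622, plus strand: aaguugcuguuUAUUUUUuuuuggccugu
Pcbp1, chr6:86524708-86524714, minus strand: cauccgcuaagAAUUUAAagaaaaaucac
Mtmr6, chr14:60301854-60301860, plus strand: uauaucuguagUAUUUCUuguguuaguuu
Btf3, chr13:98310027-98310033, minus strand: uagaucucuaaUAUUUUUaagcccaagcc
Hnrnph2, chrX:134606942-134606948, plus strand: uuuggucauguUAUUUGUauggaauucug
Vegfa, chr17:46017177-46017183, minus strand: uuguuaucauuUAUUUAUuggugcuacug
Marcks, chr10:37135991-37135997, minus strand: uugauuuuaaaGAUUUUUuuuuaaauuuc
Mllt11, chr3:95219907-95219913, minus strand: cuagaucauagGAUUUCCucccgucagcc
The windows of Vegfa and Pcbp1 and the second of Eef1a1 hold AUUUA at letters 2 to 6. The windows of Cd9, Ptma and Marcks run on into further U, and those of Pcbp1 and Mllt11 leave the U run after the core.

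The median A window was covered by 28 reads in HuD cells, with the lowest at 6, the limit of the deposited table, and the highest at 1423. Reads with a deletion ranged from 3, again the limit, to 124, with a median of 4, and 239 A windows (34.4%) stood at 3. The 10 most covered A windows held 20.5% of the summed coverage, and the 100 most covered held 59.0%. C and G windows had medians of 24 and 24.5 reads and of 5 deletions each. In the pooled counts a deletion was found in 9.85% of the reads over A windows, 14.2% over C windows and 11.3% over G windows. The median share per window was 17.6% for A, 22.7% for C and 21.1% for G. With at least 3 deletions required, a window with few reads was listed only at a high share. At 32.8% of A windows fewer than 10% of the reads held a deletion, against 23.4% of C windows and 28.0% of G windows, and at 16.1%, 22.4% and 22.4% at least 50% did. Weighted by coverage, A windows held 34.6% of the reads at the windows of the 3 kinds, and weighted by deletions 28.9%. These are descriptions of 1 pooled experiment, and windows of a gene share reads, so the differences between the kinds were not tested. The authors' combined p-value was under 0.05 at 128 A windows (18.4%) on 98 genes, against 18.8% of C and 20.8% of G windows, and the lowest of an A window was 3.12e-04.

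The 2 windows with the most reads had few deletions. The most covered lies 122 nt after the stop codon of *Btf3*, the beta subunit of the nascent polypeptide-associated complex, and had 1423 reads and 5 deletions. A second window in *Btf3*, aAUUUuu at chr13:98310071-98310077, had 461 reads and 21 deletions. The window of *Hnrnph2*, a splicing regulator, had 1309 reads, 4 deletions and, in control cells, 7 reads. Next came windows of *Eef1a1*, which encodes the elongation factor that brings aminoacyl-tRNA to the ribosome. Its window 158 nt after the stop codon had 1098 reads and 124 deletions, the most of any A window, that at 79 nt had 1006 and 88, and that at 247 nt had 750 and 27. A pair of overlapping windows in the histone H4 gene *Hist1h4d*, 4 nt apart, had 988 and 981 reads with 17 and 22 deletions. The amino acid transporter gene *Slc38a6* followed with 762 reads, 3 deletions and 5 control reads, and the cyclin I gene *Ccni* with 669 reads and 3 deletions.

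Windows with many deletions were a different set, apart from *Eef1a1*. The tetraspanin gene *Cd9* had 239 reads and 95 deletions, so that 39.7% of its reads held a deletion. *Ptma*, which encodes prothymosin alpha, had 264 reads and 52 deletions, and *Pcbp1*, a poly(C)-binding protein gene, had 156 and 52. A window of *Ccni* had 142 reads and 41 deletions. At *Mtmr6*, a phosphoinositide phosphatase gene, 41 of 42 reads held a deletion (97.6%), and at *Cit*, the citron kinase gene, 36 of 41 did (87.8%). *Trappc6b*, a subunit of a vesicle tethering complex, had 52 reads and 38 deletions, and *Hnrnpl*, another splicing regulator, 81 and 38. In all, at 33 A windows at least 80% of the reads held a deletion, against 73 C and 53 G windows.

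**Figure D1:**
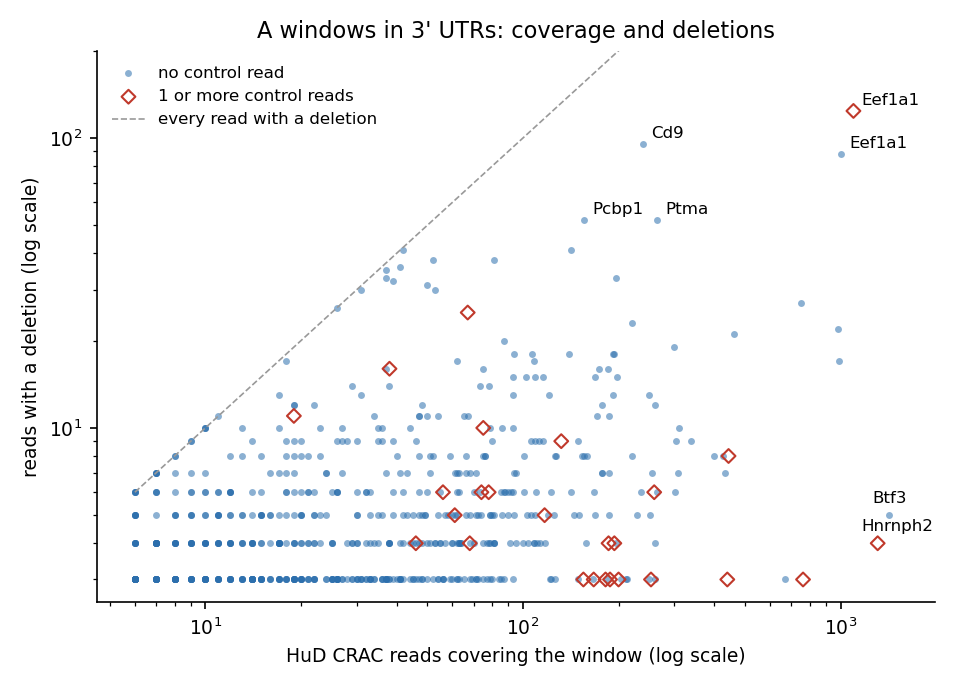
Each point is 1 of the 695 A windows. The x axis gives the HuD CRAC reads covering it and the y axis the reads with a deletion, both pooled by the authors and on log scales. Diamonds are the 26 windows with a read in control cells, and the dashed line marks windows at which every read held a deletion. Among these windows, all listed with at least 3 deletions, deletions do not follow coverage closely. *Btf3* and *Hnrnph2* lie far right and low and *Eef1a1* and *Cd9* at the top.

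Across the 695 A windows, log2 coverage and log2 deletions had a Pearson r of 0.388 (Spearman rho 0.336). The level of a gene was taken as FPKM, the mean CPM of the 2 control RNA-Seq libraries per kilobase of exon. Across the 690 A windows on genes with such a level, log2 coverage had r = 0.461 with log2 FPKM (rho 0.455), and log2 deletions r = 0.162 (rho 0.119). These are correlations across windows, which share pooled libraries and, in part, genes. Windows were listed only with at least 3 deletions and 6 reads, so the correlations also depend on these limits. Genes with an A window had a median FPKM of 22.3, those with C or G windows but no A window 19.6, and all other genes 4.83. Control cells had reads at 26 A windows (3.74%), 46 reads in all, and a deletion at 1 of them, the *Eef1a1* window with 124 deletions in HuD cells. That window had 1 control read, and the windows with more than 2 were those of *Hnrnph2* and *Slc38a6* and a *Ptma* window with 3. Control reads were at 2.03% of C windows and 2.88% of G windows, with no control deletion. The authors penalised positions with control reads, so these shares also describe that choice.

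The A windows took 61 of the 64 heptamers the rule allows. The most frequent were gAUUUuu with 49 windows, uAUUUuu with 44, cAUUUuu with 38, uAUUUug with 33, cAUUUug with 32 and aAUUUuu with 25, where capitals mark the A and the U core. Together these held 31.8% of the A windows. By summed coverage uAUUUuu led with 5793 reads (12.6% of the reads at A windows), followed by cAUUUuu with 3548 and gAUUUuu with 2815. The 3 heptamers not found were aAUUUcg with 26 occurrences in the UTRs counted below, cAUUUcg with 42 and gAUUUcg with 20, so each was rare there. Letter 6 was U in 52.7% of A windows (95% Wilson interval 48.9% to 56.3%), G in 19.4%, A in 19.3% and C in 8.63%. Letter 7 was U in 42.9% and A in 21.0%, and letter 1 was U in 31.7%, C in 26.2%, G in 23.2% and A in the rest. All letters of a window entered the authors' sequence score, on which windows were kept, so these shares describe the score as well as the binding.

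To see which stretches of this kind were listed, every NAUUUNN in the 3′ UTR of 1 transcript for each gene with a listed window of the 3 kinds was counted (N is any letter). Of 27392 such occurrences, 673 (2.46%, 95% Wilson interval 2.28% to 2.65%) were listed as A windows. For C in place of A it was 862 of 23361 (3.69%), and for G 617 of 21770 (2.83%). The intervals cover counting error only, and occurrences of a gene share its level. Among the heptamers with at least 100 occurrences, gAUUUuu was listed most often, at 47 of 743 (6.33%), then cAUUUug at 30 of 505 (5.94%). The related uAUUUuu and aAUUUuu were both at 2.48%. Letter 6 was U at 41.8% of all occurrences against 52.7% of the A windows, C at 16.6% against 8.63%, and A at 22.3% against 19.3%. Letter 1 was G at 15.9% of occurrences and 23.2% of A windows.

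The AUUUA pentamer of AU-rich elements was not more frequent at A windows than at the occurrences counted above. Those come from genes with a listed window of any of the 3 kinds. Windows were kept on the authors' score, which was 0.970 for uAUUUuu and 0.930 for uAUUUau, while occurrences were not. The comparisons of AUUUA and of runs of U thus describe the score as well as the binding. AUUUA stood at letters 2 to 6 in 134 A windows (19.3%, 95% Wilson interval 16.5% to 22.4%), against 22.3% of occurrences. Of the occurrences with AUUUA at those letters 130 were listed (2.13%), against 3.14% of those with AUUUU, 2.46% with AUUUG and 1.17% with AUUUC. Within the 29 nt of window and flanks, AUUUA was found in 167 of the 677 A windows placed on a transcript (24.7%), against 27.7% of A occurrences, and the longer UUAUUUAUU in 5 (0.739%) against 1.36%. Runs of U went the other way, with UUUUU in 30.6% of A windows against 24.6% of occurrences, and UUUUUUU in 13.4% against 4.93%. For C windows the run of 7 was in 11.9% against 5.20%, and for G windows in 9.08% against 5.56%. All motifs were searched on the RNA strand only, and UUUUU and UUUUUUU overlap each other and, in part, the window itself. The flanks were 66.9% A or U on average (SD 10.7 over 677 windows), close to the 66.0% of occurrences. The poly(A) signal AAUAAA was in 2.51% of A windows and 2.57% of occurrences.

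The A windows lay along the whole 3′ UTR. The median was 670 nt after the stop codon (middle 50% from 268 to 1363 nt) and 748 nt before the annotated transcript end, in UTRs with a median length of 1811 nt. As a share of UTR length, the median was 47.3%, against 52.1% for the A occurrences counted above. Within 100 nt of the stop codon lay 56 A windows (8.27%, against 3.08% of occurrences), and within 100 nt of the annotated end 84 (12.4%, against 6.39%). Of C windows 7.26% lay as near to the stop codon and 12.2% as near to the end, and of G windows 5.83% lay as near to the stop codon. Long UTRs supply more occurrences, and 100 nt is a smaller part of them, so the shares within 100 nt also depend on UTR length. Of 10 equal stretches of the UTR, the first held 10.0% of A windows and 8.53% of occurrences. The last held 10.2% and 12.2%, so by this measure A windows were not more frequent near the annotated end. These differences were not tested.

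**Figure D2:**
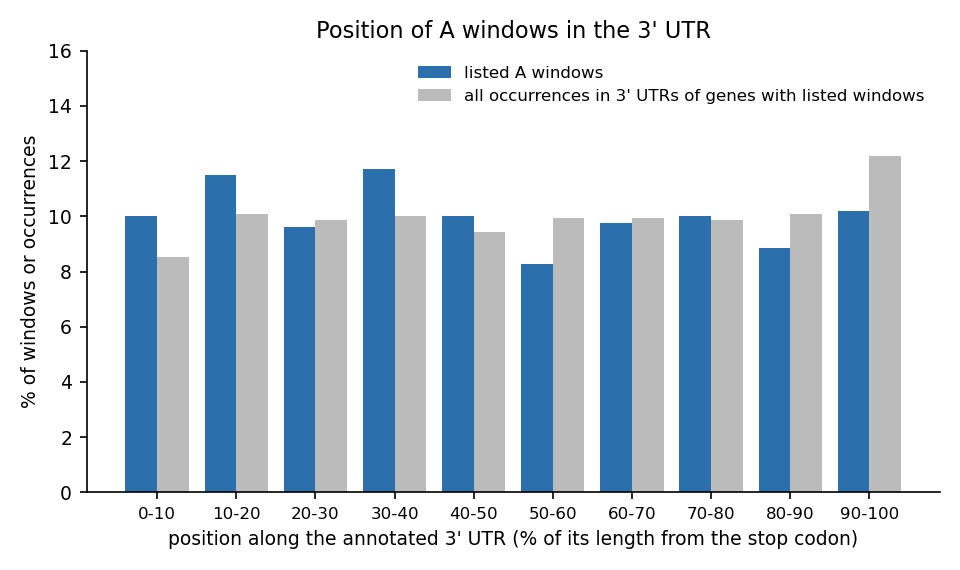
Bars give the share of A windows (blue, 677 windows placed on a transcript) and of all occurrences of A before the U core in 3′ UTRs of genes with listed windows (grey, 27392) in 10 equal stretches of the 3′ UTR. The x axis runs from the stop codon to the annotated end, in percent of UTR length. The windows are spread over all 10, with 8.27% to 11.7% in each, and the last holds 10.2% of windows and 12.2% of occurrences.

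A windows often had company. On 427 genes there was 1 A window, on 77 there were 2 and on 31 there were 3 or more. Another listed window lay within 50 nt on the same strand of 232 A windows (33.4%), and it was a C window for 76, a G window for 67 and an A window for 54. Only A windows were found on 260 genes, while 106 genes had C windows too, 60 had G windows too and 109 had all 3 kinds. *Ccni* led with 8 A windows among 17 listed windows. The one with 41 deletions lay 187 nt after the stop codon and the others between 473 and 899 nt after it. The neighbouring windows at chr5:93182282-93182288, chr5:93182291-93182297 and chr5:93182300-93182306 had 235, 198 and 185 reads. *Ptma* had 6 A windows with 48 to 264 reads, and *Ptges3*, which encodes the Hsp90 co-chaperone p23, had 6 with 8 to 166. *Gm21092* also had 6, with 38 to 194 reads, but is not in the annotation used, so these could not be placed. *Tomm20*, a receptor of the mitochondrial import machinery, had 4 with 187 to 339 reads, and *Pcbp2* had 4 with 869 reads in sum. Identical 29-nt sequences were shared by *Ubb* and *Gm8797* and by *Sap18* and *Gm10094*, so reads cannot be assigned within these pairs from the window alone. *Eef1a1*, *Ptma* and *Hmgb2* also have many processed copies in the genome, and their values are uncertain as far as reads were split among them. An A window of *Pcbp2* and one of *Map3k12* lay within 30 nt of each other on opposite strands.

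A windows were counted on genes of known function, beside the 3.56% of all 14924 genes with counts that had one. Of 71 RNA-binding and splicing protein genes, 17 (23.9%) had an A window, led by *Hnrnph2*, *Pcbp2*, *Msi2* with 196 reads and *Hnrnpa0* with 175. Of 70 translation factor genes, 9 (12.9%) had one, with 3515 reads in sum, of which *Eef1a1* held 2854. *Pabpc1*, which encodes the cytoplasmic poly(A)-binding protein, had 298 reads at aAUUUuc, *Eif4g2* 237 over 3 windows and *Eif4a1*, an RNA helicase of cap-dependent initiation, 54. Of 130 ribosomal protein genes, pseudogenes by symbol included, 4 (3.08%) had one: *Rps27l* with 167 reads, *Rplp0* with 111, *Rps21* with 94 and *Rps14* with 61. Of 34 early response genes and genes with AU-rich elements 6 (17.6%) had one, among them *Vegfa* with 66 reads, *Zfp36l2* with 49, *Hif1a* with 37 and *Egr1* with 28. Of 54 cytoskeleton and axon genes 8 (14.8%) had one, among them *Cfl2* with 335 reads over 3 windows, *Cfl1* with 87, *Pfn2* with 85 and *Actb* with 84, all with known roles in actin dynamics. Of 18 genes known as HuD targets from other work, 5 had an A window, with 49 reads for *Marcks*, 37 for *App*, 25 for *Nrn1*, 12 for *Ikzf5* and 9 for *Msi1*. *Kif5b* had 33, *Picalm* 26, *Eif4a2* 7, *Sema4d* 83 over 2 windows and *Acsl4* 64 over 2. Genes with A windows had higher levels than other genes, and the part of expression in these shares was not tested. The lists also held genes with C or G windows but no A window, which were 641 of all genes with counts. These were 12 RNA-binding and splicing protein, 6 translation factor and 8 ribosomal protein genes. In the other lists they were 5 early response genes, 8 cytoskeleton and axon genes and 3 known HuD targets.

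Translational efficiency (TE), the polysomal level of a gene relative to its total level, was compared between HuD and control cells for the 531 genes with A windows that had counts. At an unadjusted p under 0.05 from edgeR's quasi-likelihood test, TE was higher in HuD cells for 14 of the 531 genes (2.64%), against 0.409% of all 14906 genes tested, and lower for 0, against 0.570%. Of 641 genes with C or G windows but no A window, 1 was higher (0.156%) and 0 were lower. The difference between the groups of genes was not tested. No gene passed adjustment over all genes, by edgeR or by DESeq2, which called the same number of genes with A windows, 14, at an unadjusted p under 0.05. Of the 14, 5 had A windows only (of 257 such genes, 1.95%) and 9 had C or G windows too (of 274, 3.28%). Genes with A windows had 2.50 windows of the 3 kinds on average and a median of 47 covering reads, against 1.34 and 19 for those without. The median log2 TE change was 0.032 for genes with A windows, 0.022 for those with C or G windows only and -0.006 for all genes. By polysomal-to-total ratios in libraries of the same number, 32.0% of the genes with A windows had both HuD libraries above both controls (27.5% with C or G windows only, 18.6% of all genes) and 14.7% had them below (13.4% and 19.9%).

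The count of 14, and its distance from the genes with C or G windows only, depend on the libraries and the fit used. Without POL control replicate 1, 1 library was left in its group, and the fit called far more genes in both directions. Genes with A windows were then called higher about as often as those with C or G windows only. They were called lower about as often as all genes. In that fit 47 genes passed adjustment, 2 of them with A windows. Without POL control replicate 2 the fit called a smaller share of genes with A windows than of all genes as lower. As higher it called a larger share of genes with A windows than of those with C or G windows only. Without RNA HuD replicate 1 and without RNA control replicate 2 it called 3 each (0.565%, against 0.188% and 0.255% of all genes), with 0 and 1 with C or G windows only. Without POL HuD replicate 1 or 2 it called 6 or 7 (1.13% and 1.32%, against 0.268% and 0.201%), with 0 with C or G windows only. With the replicate number as a block it called 29 with A windows (5.46%), 19 with C or G windows only (2.96%) and 1.09% of all genes. The log2 TE change of each of the 14 genes stayed above 0 in all of these fits. These fits share most libraries with the fit that chose the genes, so the choice favours this.

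**Figure D3:**
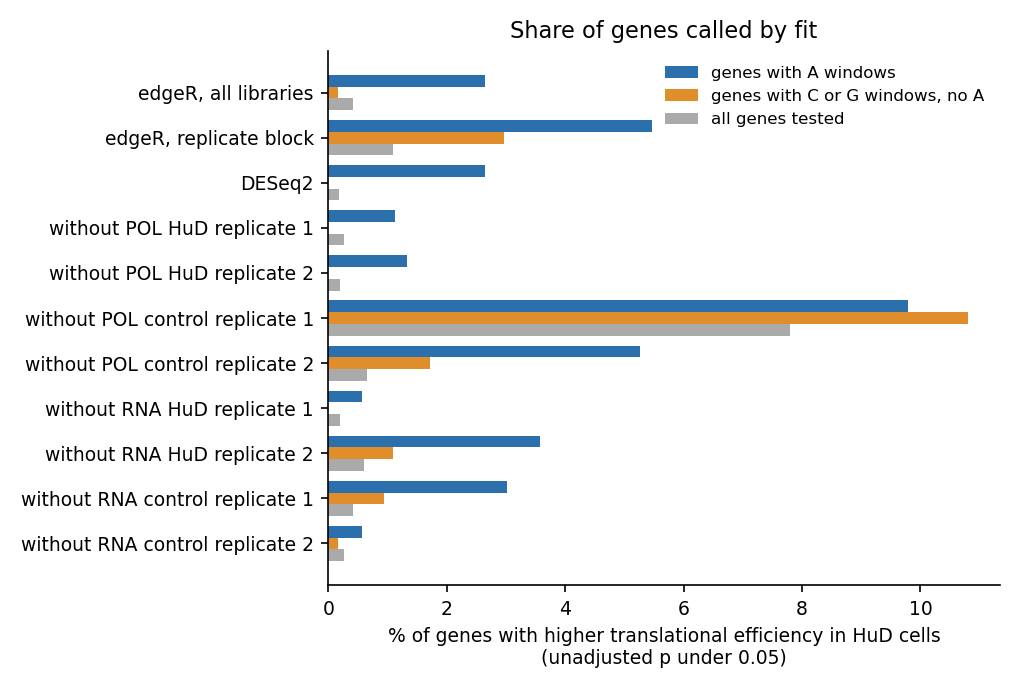
Bars give the share of genes with higher TE in HuD cells at an unadjusted p under 0.05, for genes with A windows (blue), genes with C or G windows but no A window (orange) and all genes tested (grey), in the fit to all 8 libraries, with other methods and with each library left out. Blue bars are above orange ones except without POL control replicate 1, where they are at 9.79% and 10.8%.

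*Marcks*, which encodes a membrane-bound substrate of protein kinase C that binds actin, had the smallest p for TE among these genes. In total RNA it was at 108 and 129 CPM in control and 115 and 123 in HuD cells. In polysomal RNA it was at 136 and 129 CPM in control and 195 and 185 in HuD cells. The HuD libraries were higher on polysomes only, and the log2 TE change was 0.52 (standard error 0.14, unadjusted p = 0.00532, adjusted p = 1.000 from edgeR). *Lypla1*, a protein depalmitoylase gene, was at 70.8 and 83.1 polysomal CPM in control and 93.1 and 92.2 in HuD cells, while its total level was 63.0 and 67.7 against 56.4 and 59.9 CPM. Its groups did not overlap in either fraction, and the log2 TE change was 0.44 (standard error 0.14). *Ube2d3*, a ubiquitin-conjugating enzyme gene, was at 260 and 265 polysomal CPM in control and 346 and 368 in HuD cells (log2 TE change 0.52, standard error 0.17). *Sox4*, a transcription factor gene of developing neurons, was at 94.3 and 94.4 polysomal CPM in control and 122 and 115 in HuD cells, with a log2 TE change of 0.32. Among the others, named after their values were seen, were *Cd164*, *Ap1s2*, *Arfip1*, *Pfn2*, *Ndufc2*, *Hnrnpa0*, *Ier3ip1*, *Irf2bpl* and *Serp1*, with log2 TE changes from 0.33 to 0.59 and unadjusted p from 0.0229 to 0.0430 in edgeR. *Pfn2* encodes the neuronal profilin and *Hnrnpa0* an AU-rich element binding protein.

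**Figure D4:**
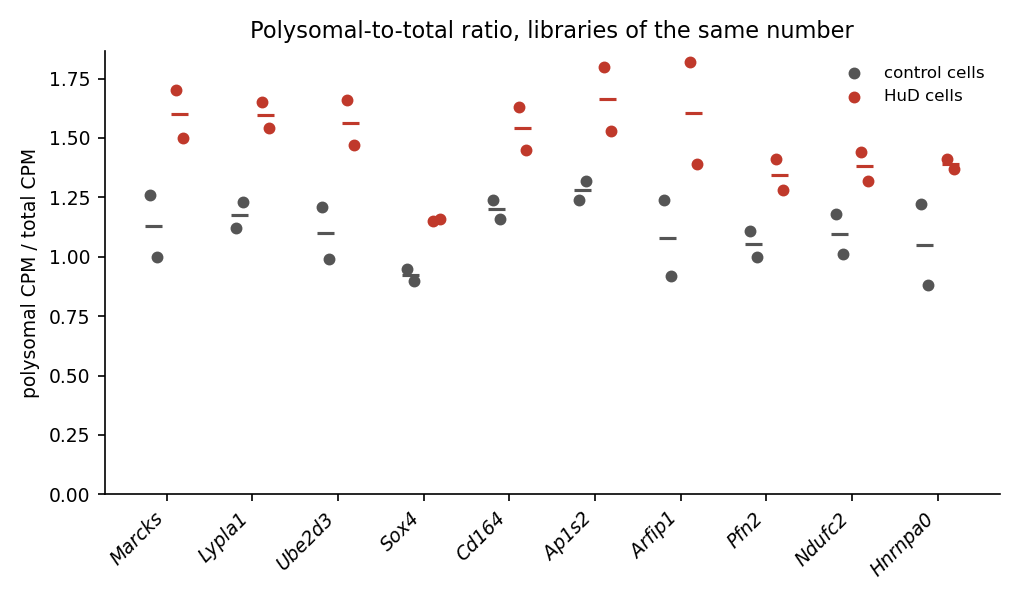
Points give the ratio of polysomal to total CPM of libraries with the same replicate number, in control (grey) and HuD cells (red), and lines give the mean of each pair, for the 10 genes with the smallest p among the 14 with A windows and higher TE at an unadjusted p under 0.05, in order of p. In each gene both HuD ratios are above both control ratios, which is what the choice by p selects.

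In the other direction, *Zfp655*, a zinc finger protein gene, had ratios of 1.04 and 1.08 in control and 0.82 and 0.94 in HuD cells. These did not overlap, which its choice required (log2 TE change -0.28, unadjusted p = 0.101 from edgeR). *Pabpc1* had ratios of 0.61 and 0.64 against 0.51 and 0.54 and a log2 TE change of -0.25, and neither passed an unadjusted p of 0.05. *Eef1a1*, with the most deletions, had ratios of 0.90 and 0.96 in control and 0.79 and 0.84 in HuD cells and a log2 TE change of -0.19 (standard error 0.16, unadjusted p = 0.274 from edgeR). *Ccni*, with the most A windows, was at -0.09 and *Btf3* at -0.05. Across 531 genes, summed A window coverage and the log2 TE change had a Spearman rho of 0.202 (Pearson r 0.177 with log2 coverage), which is a description across genes that share libraries. With 1 A window the median log2 TE change was 0.027 over 424 genes, with 2 it was 0.054 over 76 and with 3 or more 0.026 over 31. Among the 95 genes whose A window had a combined p under 0.05, 3 had higher TE at an unadjusted p under 0.05 (3.16%). That was against 2.64% of all genes with A windows and 0.409% of all genes.

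In polysomal RNA alone, 27 of the 531 genes were higher in HuD cells at an unadjusted p under 0.05 (5.08%, against 2.29% of all genes) and 12 were lower (2.26%, against 1.89%). Of the 641 genes with C or G windows only, 25 were higher (3.90%) and 11 lower (1.72%). No gene passed adjustment by edgeR, while DESeq2 called 3 genes, among them *Marcks* (adjusted p = 0.0322). *Mllt11*, a nuclear factor gene of neurons and blood cells, was at 106 and 99.2 CPM in control and 132 and 144 in HuD cells (log2 change 0.43, standard error 0.09, adjusted p = 0.969 from edgeR). *Rab39b*, which encodes a neuronal Rab GTPase, was at 72.0 and 76.4 CPM in control and 99.7 and 97.5 in HuD cells (unadjusted p = 0.00149, adjusted p = 0.969 from edgeR). Lower at an unadjusted p under 0.05 were *Lbr*, the lamin B receptor gene, with 159 and 168 against 136 and 136 CPM, *Tpm4*, a tropomyosin gene, with 167 and 167 against 143 and 143, and *Hmgb2*, a chromatin protein gene, with 355 and 422 against 319 and 331. Without POL control replicate 1, 1 library was left in its group, and the fit called far more genes in both directions. Genes with A windows were then called higher about as often as all genes, and lower more often than all genes. Genes with C or G windows only were also called lower more often than all genes. Without POL control replicate 2, 53 were higher (9.98%, against 2.95%). Without POL HuD replicate 1, 12 were higher (2.26%, against 1.39%) and 1 lower (0.188%, against 0.824%), and without POL HuD replicate 2, 13 were higher (2.45%, against 0.918%) and 5 lower (0.942%, against 0.710%). Lower were 6 without either RNA HuD library (1.13%, against 1.31% and 1.33%) and 7 without either RNA control library (1.32%, against 1.26% and 1.27%).

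In total RNA, 5 of the 531 genes were higher (0.942%, against 1.78% of all genes) and 9 were lower (1.69%, against 0.865%). No gene passed adjustment by edgeR, and DESeq2 called 1, which had no A window. The genes with C or G windows only had 11 higher and 7 lower of 641. *Vegfa*, the vascular endothelial growth factor gene, was at 119 and 124 CPM in control against 140 and 163 with HuD, and its log2 difference was 0.32 (standard error 0.10, unadjusted p = 0.0132, adjusted p = 1.000 from edgeR). *Mllt11* was at 105 and 106 CPM in control and 123 and 137 in HuD cells, and *Cdc37l1*, a co-chaperone gene, at 49.1 and 49.4 against 59.5 and 64.9. *Tpm4* was at 164 and 165 against 134 and 144 CPM, *Myl12a*, a myosin light chain gene, at 252 and 258 against 219 and 216, and *4930579G24Rik* at 44.1 and 45.2 against 33.5 and 39.9. None of these 6 genes overlapped between the groups, which their choice required. Without overlap, 8.66% of the genes with A windows were higher and 22.4% lower, against 15.1% and 16.8% of all genes. Without POL control replicate 1, 12 were higher (2.26%, against 2.65% of all genes in that fit) and 29 lower (5.46%, against 2.08%), and without POL control replicate 2, 13 were higher (2.45%, against 2.81%) and 30 lower (5.65%, against 2.11%). Without RNA control replicate 1, 3 were higher (0.565%, against 1.29%). Without RNA HuD replicate 1, 0 were lower (against 0.456%), and without RNA control replicate 2, 2 were (0.377%, against 0.382%).

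Of the lists above, the members with A windows that passed an unadjusted p of 0.05 are named here. Of the 4 ribosomal protein genes none did, and their median log2 changes were -0.08 in total RNA, -0.04 in polysomal RNA and 0.07 in TE. Of 9 translation factor genes, *Pabpc1* was lower in polysomal RNA (737 and 713 CPM in control, 572 and 642 in HuD cells), with list medians of -0.03, -0.13 and -0.10. Of 17 RNA-binding protein genes, *Hnrnpa0* was higher in polysomal RNA and TE and *Pcbp1* lower in total RNA, with medians of -0.07, -0.07 and -0.00. Of 6 early response genes, *Vegfa* was higher in total and polysomal RNA, with medians of 0.04, 0.03 and 0.02. Of 5 known targets, *Marcks* was higher in polysomal RNA and TE and *Ikzf5* lower in polysomal RNA, with medians of -0.07, -0.04 and 0.03. Of 8 cytoskeleton and axon genes with counts, *Pfn2* and *Marcks*, counted in both lists, were higher in polysomal RNA and TE, with medians of 0.02, 0.01 and 0.04. The medians over all genes were -0.004, -0.006 and -0.006. Of all genes, 1.78% were higher and 0.865% lower in total RNA at that threshold. In polysomal RNA it was 2.29% and 1.89%, and in TE 0.409% and 0.570%. The lists held 4 to 17 genes with A windows, so 1 gene already exceeds these shares in any of them.

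By 3′ end sequencing, which counts reads at polyadenylation sites, 455 of the genes with A windows were measured among 9621. Without a block, 5 were higher (1.10%, against 2.87% of all) and 11 lower (2.42%, against 3.00%) at an unadjusted p under 0.05, and none passed adjustment by edgeR. Libraries of the same replicate number deviated together, and with the number as a block 48 were higher (10.5%, against 8.64% of all) and 49 lower (10.8%, against 10.1%). The block gave an adjusted p under 0.05 for 11 of the 455 (2.42%), close to the 2.26% of all genes. These 11 are named after their values were seen. DESeq2 without the block called 1 of them, *Htr3a*. In the fit without the block, leaving out HuD replicate 2 gave 27 higher (5.93%, against 5.90% of all genes in that fit) and 36 lower (7.91%, against 7.40%). Leaving out control replicate 1 gave 9 higher (1.98%, against 2.13%) and 7 lower (1.54%, against 2.15%), and control replicate 2 gave 8 higher (1.76%, against 2.36%). Leaving out HuD replicate 1, HuD replicate 3 or control replicate 3 gave 6, 4 or 6 lower (1.32%, 0.879% and 1.32%, against 1.89%, 1.99% and 1.85%).

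*Htr3a*, which encodes a subunit of the serotonin-gated ion channel, had the largest log2 change among these 11 genes. It was at 111, 153 and 127 CPM in control and 38.8, 63.0 and 41.3 in HuD libraries, and the groups did not overlap. The log2 change was -1.47 with the block (standard error 0.09, adjusted p = 8.89e-06 from edgeR) and -1.45 without it (adjusted p = 0.0750). In total RNA *Htr3a* was at 513 and 421 CPM in control and 469 and 365 in HuD cells, a log2 change of -0.16 (unadjusted p = 0.372 from edgeR), and these groups overlapped. Its A window, cAUUUuu at chr9:48899383-48899389, had 43 reads and 7 deletions. *Mllt11* was at 162, 155 and 197 CPM in control and 261, 210 and 290 in HuD libraries, a log2 change of 0.56 with the block (adjusted p = 0.00672 from edgeR), in the same direction as in total and polysomal RNA. *Egr1*, an immediate early transcription factor gene, was at 37.1, 32.7 and 35.6 against 54.2, 52.4 and 47.2 CPM (log2 change 0.54, adjusted p = 0.0191 with the block), while in total RNA its log2 change was -0.02. *Lbr* fell from 98.8, 107 and 99.1 to 70.0, 79.5 and 73.0 CPM (log2 change -0.45, adjusted p = 0.0201 with the block), and *Naa50*, an N-terminal acetyltransferase gene, from 314, 323 and 328 to 245, 231 and 242. Of the remaining genes, *Etv5*, *Tmpo*, *Wdr26* and *Hsd17b7* fell and *Msn* and *Zbtb18* rose with the block, with log2 changes of -0.57 to 0.44. Without the block none of the 11 passed adjustment by edgeR (lowest adjusted p = 0.0750).

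**Figure D5:**
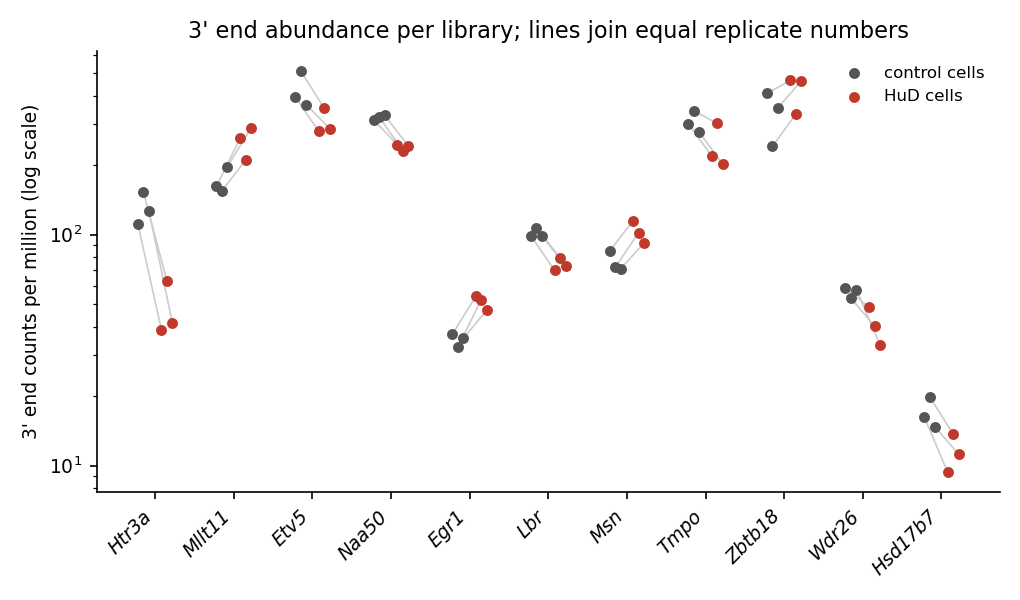
Points give the 3′ end CPM, on a log scale, of the 3 control (grey) and 3 HuD (red) libraries for the 11 genes with A windows and an adjusted p under 0.05 with the replicate block, in order of p, and lines join libraries of the same number. *Htr3a* is lowest in HuD relative to control libraries. In every gene all 3 lines run in the same direction, which is what the choice with the block favours.

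Whether transcripts kept or lost their A window by their choice of 3′ end was compared in the same libraries. Of 589 A windows on genes with end counts, 484 (82.2%) had all measured ends beyond the window, so that every counted transcript end left the window in the mRNA, 95 (16.1%) had ends on both sides and 10 (1.70%) had none beyond. For C and G windows, ends lay on both sides at 14.6% and 16.3%. At the 95 windows the median share of ends beyond the window was 88.3% in control cells (middle 50% from 61.2% to 96.2%). The share was tested at the divisions of ends with enough counts, 71 by A windows among 165 in all. In 1 of the 71 (1.41%) it differed at an unadjusted p under 0.05, against 2.42% of all, and with the block in 3 (4.23%) against 5.45%. None of the 71 passed adjustment by edgeR. Without HuD replicate 3, 2 of them differed at an unadjusted p under 0.05, and without each of the other libraries and by DESeq2 1 did. For *Cdc42*, a small GTPase gene of cell polarity, 96.9%, 96.7% and 96.9% of the ends lay beyond the window in control libraries and 95.0%, 95.3% and 96.1% in HuD libraries, which did not overlap (log2 change of the odds -0.53, standard error 0.15, unadjusted p = 0.00906, adjusted p = 0.982 from edgeR). *Copg1*, a coatomer subunit gene, had 93.7% ± 0.357 (SD, n = 3) in control and 95.0% ± 0.514 (SD, n = 3) in HuD libraries, and *Zfp655* 54.4% ± 2.88 and 47.5% ± 5.83 (SD, n = 3), and neither passed an unadjusted p of 0.05 in edgeR.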

How the data were processed

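Duplicate CRAC reads were collapsed and aligned by the authors with TopHat2 2.0.14 to GRCm38.p4. Replicates were then pooled and positions with control reads penalised. The authors deposited, per window and transcript, the coverage (a signal in reads), the count of reads with a deletion, a sequence score from a weight matrix seeded with positions of combined p under 0.05, and an unadjusted p-value that combines coverage and deletions by Fisher's method. Totals of the CRAC libraries were not analysed here, and the depth behind coverage is unknown. The deposited RNA-Seq and POL-Seq values are raw counts per gene from STAR 2.5.3a (21296012 to 36284728 per library), and the deposited 3′ end values are counts per transcript end (12986862 to 15751036 per library after shared ends were reduced to 14536).

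Rows that repeat a position on the same strand gave 1 window, with the highest coverage and deletions and lowest p-value. The listed sequence of 677 of 678 A windows that could be tested lay 1 nt (plus strand) or 2 nt (minus strand) downstream of the listed interval read as 0-based in GENCODE vM21 transcripts. This shift was chosen after the data were examined and changes positions only. edgeR 4.0.16 in R 4.3.3 was used for all counts (TMM, filterByExpr, quasi-likelihood test, Benjamini-Hochberg adjustment over all genes, threshold 0.05), and TE was the interaction term between polysomal fraction and HuD over 8 libraries. DESeq2 1.42.0 was an alternative. 3′ ends on each side of a window needed 10 counts on average, and their odds were tested in edgeR. CPM used TMM library sizes. Intervals cover counting error only. For 3′ ends, libraries of equal number deviated alike (r = 0.398, 0.657 and 0.516 across genes), so the block is given beside those results. The pairing comes from the numbers in the labels.

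The A windows, gene lists and tests were chosen with earlier results of these data known. Named are the 10 A windows with the most coverage and with the most deletions, the 6 genes with the most A windows, the 3 genes in each direction with the smallest p and groups that do not overlap, the 4 most covered genes of each list, genes the study names and the 3 divisions of ends with the smallest p. The procedures were tested on simulated data. Sequences from chromosome 18 and some genes that the naming rule picks are not reported here. Other assays were not analysed here.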

Additional observations from a re-analysis of the deposited data

How the results depend on the processing

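Of 141 alternative values of counts, shares and medians over all A windows or genes with A windows, 79 stayed close to the reported value. With a combined p under 0.05 the number of A windows was 128, the median HuD coverage of A windows 122 reads and the median deletions of A windows 11, and with at least 20 covering reads these were 415, 59.0 and 5.00, since the choice itself raises them. The share of A windows among the 3 kinds was 34.6% weighted by coverage and 28.9% by deletions. With the replicate number as a block, genes with A windows were 10 higher and 33 lower in total RNA (1.88% and 6.21%, against 3.58% and 2.58% of all genes). In polysomal RNA they were 46 and 30 (8.66% and 5.65%, against 4.31% and 4.98%), and in TE 29 and 2 (5.46% and 0.377%, against 1.09% and 1.34%). At 3′ ends they were 48 and 49 (10.5% and 10.8%, against 8.64% and 10.1%), and 3 divisions of ends differed (4.23%, against 5.45% of all). RNA-Seq and POL-Seq libraries of equal number correlated between groups at 0.187 to 0.387, but with 2 numbers and no label that ties them this does not settle a pairing, and the block gave no adjusted p under 0.05 for a gene with A windows there. Only genes whose A window had a combined p under 0.05, 95 with RNA-Seq counts, gave 1 higher and 2 lower in total RNA and 6 and 3 in polysomal RNA. They gave 3 higher in TE, 2 and 1 at 3′ ends and 0 divisions, from fewer genes. Of all genes, 1.78% were higher and 0.865% lower in total RNA, 2.29% and 1.89% in polysomal RNA and 2.87% and 3.00% at 3′ ends. In TE 0.409% of all genes were higher. Leaving out 1 library gave 3 to 13 higher and 0 to 30 lower genes in total RNA, 12 to 59 and 1 to 92 in polysomal RNA, 3 to 52 and 0 to 35 in TE, 4 to 27 and 4 to 36 at 3′ ends, and 1 to 2 divisions, where a lone library of a group is taken to vary like the others. The shares of all genes called moved in the same fits too. The cause was not tested. Merging overlapping windows left 673 A windows. DESeq2, its size factors, no filter, and ends within 20 nt merged, which was chosen after seeing the data, kept each count of genes with A windows at an unadjusted p under 0.05 within 1.5 times. DESeq2 called 27 genes of all as higher in TE, against 61, and gave an adjusted p under 0.05 for *Marcks* in polysomal RNA and *Htr3a* at 3′ ends. No value past an adjusted p under 0.05 changed sign. Without POL control replicate 1 *Marcks*, *Mllt11*, *Rps21* and *Hmgb2* passed adjustment in polysomal RNA, and without 3end HuD replicate 2 *Htr3a* did at 3′ ends. The CRAC windows at 3 deletions sit at the limit of the table.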
